A study of Homo sapiens with 6 samples.

Results

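The MYC and MAX network is a family of transcription factors of the basic helix-loop-helix leucine zipper type. The genes described here are the 10 listed network genes MYC, MYCN, MYCL, MAX, MXD1, MXI1, MXD3, MXD4, MNT and MLX, out of 60663 genes with values. They were chosen by name, with earlier results of these data known. RNA was sequenced from 5637 cells, an established human bladder cancer line, 48 h after transfection. Per the series description the cells of each library carried dCas13b-FTO, in which an RNA-guided Cas13b that no longer cuts is joined to FTO, a demethylase of the m6A (N6-methyladenosine) mark on RNA. The sample titles name dCas13b without FTO, while the table's own columns name FTO. The control group (3 libraries) also received gRNA-control, and the other group (3 libraries) received HRAS-gRNA, a guide directed at the mRNA of the small GTPase HRAS. No group lacks the fusion, so the comparison is between guides and not between cells with and without it. The labels do not state whether replicates are separate cultures, and p-values then measure only the spread between these libraries, which may be technical.

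Members of this network act as dimers. MAX, the shared partner, pairs with a MYC protein to activate genes and with an MXD protein or MNT to repress them, and both kinds of dimer bind the same DNA letters, the E-box. MLX is the matching partner in a parallel branch that senses nutrients through MLXIP and MLXIPL. MYC is an oncogene that drives growth and ribosome production, it belongs to the genes switched on quickly by growth factors, and its mRNA and protein are both short-lived and under control of RAS and ERK signalling. MYC mRNA also carries m6A that IGF2BP proteins read. These are background facts and were not measured here.

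Library totals ran from 24968702 to 32283370 counts. The libraries differed along transcript GC content inside each group. The rank correlation (Spearman) of GC content with a library's deviation from the mean of all libraries, taken over genes that are no independent replicates, ran from -0.46 to 0.61 with the control guide and from -0.49 to 0.27 with the HRAS guide. Levels are given as CPM, read counts scaled to a common library size with edgeR's TMM factors, and log2 fold changes, given with their standard error (SE), are negative where the HRAS guide libraries were lower. A gene passed when its edgeR p, adjusted over all genes tested by the Benjamini-Hochberg method, was under 0.05. The targeted mRNA, HRAS, lay between 146 and 230.4 CPM under the control guide and between 167 and 199.9 CPM under its own guide, a log2 fold change of 0.01 ± 0.15 (SE, n = 3 per group, edgeR adjusted p = 1.00). FTO lay between 32.1 and 38.1 CPM and between 30.9 and 31.4 CPM, a log2 fold change of -0.19 ± 0.10 that did not pass. Of 16 urothelial and epithelial markers 13 were tested, and KRT5, KRT7 and KRT19 averaged 1750.2, 1582 and 3368 CPM, whereas UPK1A, UPK1B and UPK3A were below 0.1 CPM. Of the markers of other cells, 5 of 6 for immune cells (PTPRC at 0.02 CPM), 5 of 6 for endothelium and red cells (CDH5 at 0.03 CPM), 3 of 8 for fibroblasts and muscle and 2 of 6 for HEK293 and neural cells (LIN28B at 0) were under 1 CPM. COL1A1 (169.5 CPM) and SOX2 (104 CPM) were well above it, and 0 markers of any of these lists passed in edgeR, with 0 at an unadjusted p under 0.05, or in DESeq2 or limma-voom.

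Levels of the members spanned a wide range when scaled by length, that is, as CPM per kilobase of annotated exon. MYC was the most abundant in all 6 libraries, at 75.3 to 100.1 CPM per kilobase, with a mean 6.70 times that of MLX. MLX (12.1 to 14.4) and MAX (9.76 to 11.05) followed, and MLX exceeded MAX in 6 of 6 libraries. MNT (5.32 to 7.22), MXD3 (4.73 to 6.68), MXI1 (4.65 to 5.87) and MXD4 (3.93 to 5.49 CPM per kilobase) formed a band in which each overlapped its neighbour, so their order is not resolved. MYCL, the paralogue first found in lung cancer, stood at 3.04 to 3.74, and MXD1 at 1.93 to 2.68 CPM per kilobase. MYCN, the paralogue known from neuroblastoma, was nearly absent, at 0.01 to 0.08 CPM per kilobase. Exon lengths count every annotated isoform, so a gene with long rarely used exons is set too low on this scale. The order below MYC depends on the length chosen. Exon lengths are 4259 bases for MLX and 4430 for MAX, while median transcript lengths are 1068 and 728. Scaled by the latter, MAX would lie above MLX.

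**Figure D1:**
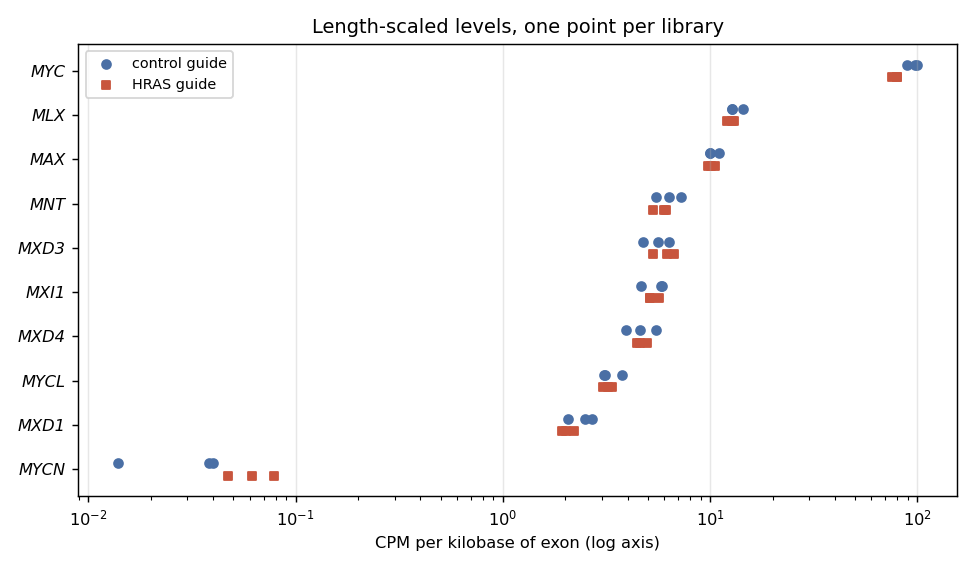
Length-scaled level of each network gene (x axis, CPM per kilobase of exon, log axis), with a point for each of the 3 control guide (circles) and 3 HRAS guide (squares) libraries. MYC lies near 100 and clear of every other member, MLX and MAX follow, and MYCN lies below 0.1.

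MYC RNA was lower in all 3 HRAS guide libraries, but the difference did not pass the threshold over all genes. MYC (ENSG00000136997, GRCh38 chromosome 8, 127735434 to 127741434) had levels of 293, 267 and 300.4 CPM in control guide replicates 1 to 3. The 3 replicates with the HRAS guide had 226, 238 and 239.9 CPM. The groups did not overlap, and the lowest control value, in replicate 2, lay above the highest HRAS guide value. The means were 287 ± 17.6 CPM and 235 ± 7.60 CPM (SD, n = 3), a log2 fold change of -0.29 ± 0.08 (SE), or 0.819 of the control level, with a 95% interval of -0.46 to -0.11. By edgeR's quasi-likelihood test the adjusted p was 1.00 and the unadjusted p 0.00439, the 80th smallest among 19836 genes. In bulk RNA, fewer cells with MYC RNA and less MYC RNA per cell cannot be told apart.

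The test called 0 of the 9 members that passed the low-count filter, against 0.0101% of all genes tested (2 genes). DESeq2 and limma-voom also called 0 members, and at an unadjusted p under 0.05 each of these 3 tools had 1 member, MYC. That is 1 of 9, where 3.34% of all genes had such a p in edgeR. Non-overlapping groups were likewise seen in 1 of 9 members and in 8.81% of all genes tested (4% lower and 4.81% higher with the HRAS guide), so that count is near the background. Of the 9 members 2 had positive and 7 negative log2 fold changes, and their median was -0.04, beside -0.0014 over all genes tested. With DESeq2's size factors in edgeR 1 was positive and 8 negative.

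**Figure D2:**
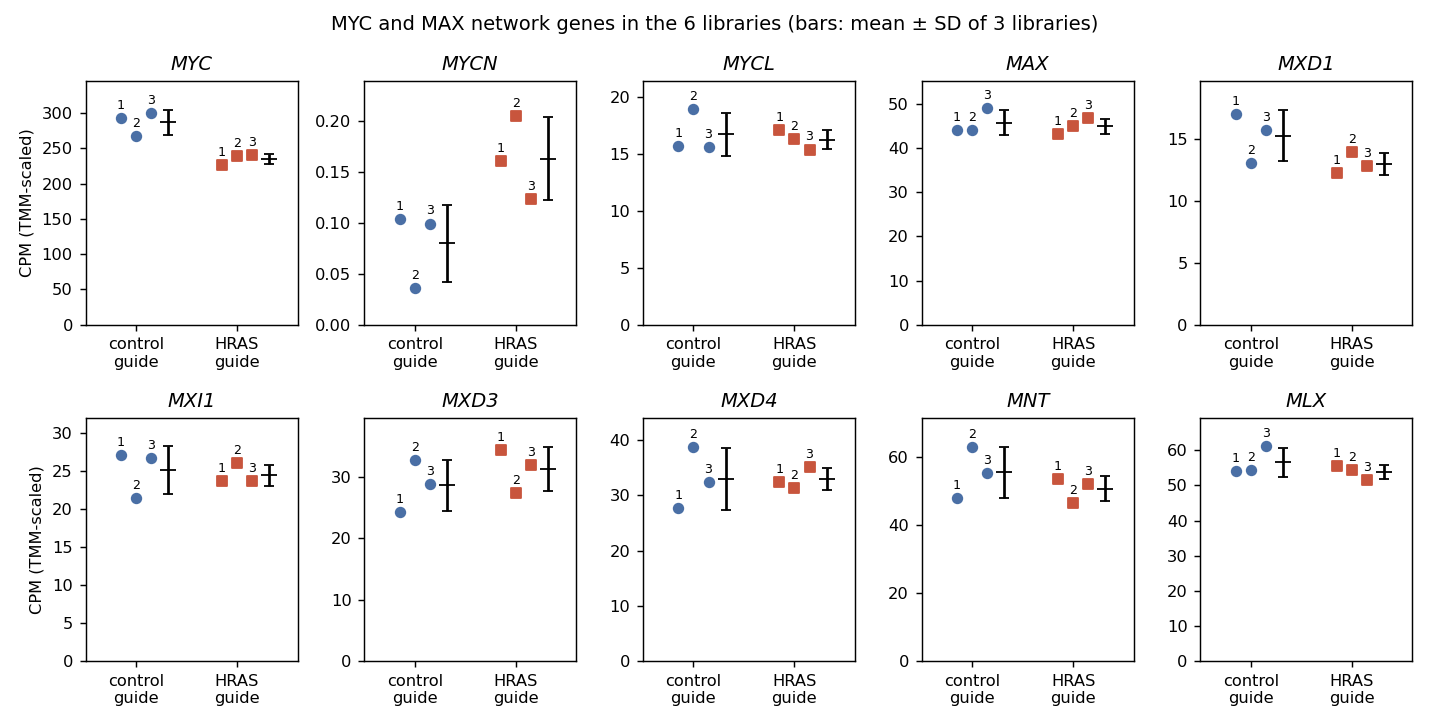
CPM of each network gene (y axis, from 0) in 3 control guide libraries (circles) and 3 HRAS guide libraries (squares), numbered by replicate, with mean ± SD beside each group. For MYC all HRAS guide libraries (226 to 239.9 CPM) lie below all control libraries (267 to 300.4 CPM), while every other tested member overlaps between the groups.

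The size and error of the MYC difference moved with control replicate 2, the library with the steepest GC trend. Without that library MYC stood at -0.34 ± 0.07 (edgeR adjusted p = 0.0672). An alternative fit removed smooth trends of GC content and transcript length from each library, and there MYC stood at -0.27 ± 0.10 with an adjusted p of 0.732. Its corrected values were 319.5, 234.5 and 306 CPM in the control libraries and 217, 255 and 239 CPM in the HRAS guide libraries, so that the groups then overlapped through control replicate 2. With the correction and without control replicate 2 MYC passed, at -0.40 ± 0.05 (edgeR adjusted p = 0.000399). This was the only one of 22 alternatives in which any member passed, and over them the adjusted p of MYC ran from 0.000399 to 1.00 and its log2 fold change from -0.40 to -0.19, the latter with the correction and without control replicate 1. Among libraries of negative GC trend (control replicates 1 and 3, HRAS guide replicate 2) the difference was -0.32, and among those of positive trend (control replicate 2, HRAS guide replicates 1 and 3) it was -0.20. With these sets of libraries as a covariate it was -0.26 ± 0.06 (adjusted p = 0.0854).

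The other MYC paralogues added little RNA. MYCL (ENSG00000116990, chromosome 1, 39895426 to 39902256) lay at 15.7, 18.9 and 15.6 CPM in the controls and at 17.1, 16.3 and 15.4 CPM in the HRAS guide libraries. The groups overlapped, with a log2 fold change of -0.04 ± 0.12 and a 95% interval of -0.30 to 0.22. MYCN (ENSG00000134323, chromosome 2, 15940564 to 15947007) had 3, 1 and 3 counts in the control libraries and 4, 6 and 4 counts in the HRAS guide libraries. It did not reach the filter and was not tested, and no fold is given at such counts.

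For MAX, the obligate partner of MYC and of the MXD proteins, no difference between the guides was detected. MAX (ENSG00000125952, chromosome 14, 65006174 to 65102695) stood at 44.1, 44.1 and 48.9 CPM in the controls against 43.2, 44.9 and 46.7 CPM. The groups overlapped, with the highest and the lowest library in different groups. Its log2 fold change was -0.02 ± 0.09, with a 95% interval of -0.23 to 0.18, so a difference within that interval is compatible with these values.

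MLX (ENSG00000108788, chromosome 17, 42567068 to 42573239), the partner of MLXIP and MLXIPL, lay at 54.1, 54.4 and 61.3 CPM in the controls and at 55.6, 54.4 and 51.5 CPM in the HRAS guide libraries. The groups overlapped, and the log2 fold change was -0.07 ± 0.09 (95% interval -0.28 to 0.14). Of its exon bases 18.1% are shared with PSMC3IP on the opposite strand, and without known strandedness reads there cannot be told apart.

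Among the MXD repressors, which recruit the SIN3 corepressor to MAX, MXD1 had the most negative log2 fold change, which did not pass. MXD1 (ENSG00000059728, chromosome 2, 69897688 to 69942945) stood at 17.03, 13.04 and 15.7 CPM in the control libraries and at 12.2, 13.97 and 12.8 CPM in the HRAS guide libraries. Control replicate 2 lay inside the HRAS guide range and the other control libraries lay above it. The log2 fold change was -0.23 ± 0.13, with a 95% interval of -0.51 to 0.05 and an unadjusted edgeR p of 0.0960, and it was -0.15 without control replicate 1. After the GC and length correction the control libraries (14.5 to 16.1 CPM) lay above the HRAS guide libraries (12.5 to 13.3 CPM), at -0.25 ± 0.08 and an adjusted p of 0.633.

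MXI1 (ENSG00000119950, chromosome 10, 110207605 to 110287365), a second MXD-type repressor, lay at 27.1, 21.4 and 26.7 CPM and at 23.6, 26.0 and 23.6 CPM. Its log2 fold change was -0.04 ± 0.12 and control replicate 2 was the lowest of all 6 libraries. MXD3 (ENSG00000213347, chromosome 5, 177301461 to 177312757), the repressor of this family linked to dividing cells, lay at 24.4, 32.7 and 28.8 CPM and at 34.4, 27.4 and 32.02 CPM. The groups overlapped, with a log2 fold change of 0.13 ± 0.13 (95% interval -0.17 to 0.42), and single libraries moved it: it was 0.018 when control replicate 1 was left out and 0.23 when control replicate 2 was. Leaving out replicate 1 of the HRAS guide gave 0.053, and replicate 2 of that group 0.21. Its exons share 22.5% of their bases with PRELID1 on the opposite strand and 17.97% with RAB24 on the same strand, and PRELID1 averaged 2032 counts per library, so part of the MXD3 count is uncertain.

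MXD4 (ENSG00000123933, chromosome 4, 2247432 to 2262294) lay at 27.7, 38.7 and 32.4 CPM in the controls and at 32.4, 31.3 and 35.2 CPM in the HRAS guide libraries. The HRAS guide libraries lay inside the control range, with a log2 fold change of 0.0016 ± 0.13. MNT (ENSG00000070444, chromosome 17, 2384060 to 2401118), a broadly expressed repressor that opposes MYC, lay at 48.0, 63.0 and 55.3 CPM and at 53.3, 46.4 and 52.0 CPM. Its log2 fold change was -0.13 ± 0.12, with a 95% interval of -0.39 to 0.13 and overlapping groups. It was -0.030 when control replicate 2 was left out, -0.23 when control replicate 1 was, and -0.073 when replicate 2 of the HRAS guide was. Of MNT exon bases 12.2% lie opposite an antisense gene that had 0 counts. Values near 0 did not keep their sign in every alternative for MYCL, MAX, MXI1 and MXD4.

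The GC and length correction narrowed the errors of the other tested members but not that of MYC. Across the other 8, standard errors ran from 0.09 to 0.13 before it and from 0.06 to 0.08 after it, while for MYC the error went from 0.08 to 0.10. It still called 0 of 9 members, against 0.2% of the 19489 genes in that fit. At an unadjusted p under 0.05 there were then 3 members, MYC, MXD1 and MXD3, against 5.8% of all genes. After the correction MXD3 lay at 26.7 to 29.7 CPM in the controls and at 30.7 to 32.4 CPM in the HRAS guide libraries (log2 fold change 0.17 ± 0.07, adjusted p = 0.748). MNT lay at 51.9 to 57.1 CPM and at 50.2 to 51.6 CPM (-0.10 ± 0.06, adjusted p = 0.910). With MXD1 these made 3 of 9 members with non-overlapping groups, where 12.3% of all genes had them on this scale.

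**Figure D3:**
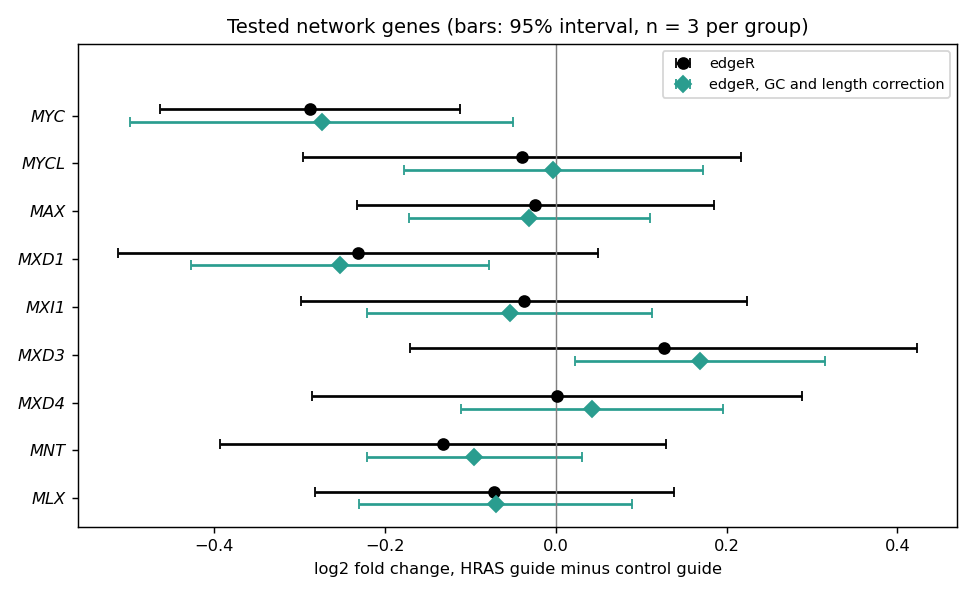
Log2 fold change, HRAS guide minus control guide (x axis), of the 9 tested network genes, with 95% intervals, by edgeR (circles) and by edgeR with the GC and length correction (diamonds), n = 3 per group. MYC lies at -0.29 and -0.27 with both intervals below 0, and no member passed the test over all genes in either fit.

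Without the GC and length correction, MYC took a smaller share of the network's RNA in each HRAS guide library than in any control library. Scaled by length, MYC made up 63.0% to 66.8% of the summed level of the 10 genes with the control guide and 59.8% to 61.8% with the HRAS guide. The 3 MYC genes together stood at 98.9 ± 5.50 against 81.5 ± 2.38 CPM per kilobase (SD, n = 3). The 5 repressor genes MXD1, MXI1, MXD3, MXD4 and MNT stood at 24.4 ± 1.56 against 23.9 ± 0.85 CPM per kilobase. The ratio of the former sum to the latter was 4.44, 3.60 and 4.16 in control replicates 1 to 3 and 3.22, 3.61 and 3.42 in HRAS guide replicates 1 to 3. Control replicate 2 lay just inside the HRAS guide range, so the ratios overlapped. These sums and shares were not tested, since the genes were chosen with earlier results known. MYC makes up most of the summed level, so its share largely restates its own difference. Shares are not given with the correction, where MYC itself overlapped (234.5 CPM in control replicate 2, 255 CPM in HRAS guide replicate 2).

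The genes whose values followed MYC most closely over the 6 libraries were taken by a fixed measure, the root-mean-square difference of centred log2 CPM, among 11933 other genes of at least 5 CPM. The 5 nearest were IL36G (0.02), a cytokine of the interleukin-1 family, FAM83D (0.04), a mitotic spindle protein, CASP10 (0.04), an initiator caspase, MIDEAS (0.04), a scaffold of a histone deacetylase complex, and DUSP6 (0.05), a phosphatase that acts on ERK. DUSP6 lay at 136, 114 and 134 CPM in the controls and at 98.9, 107 and 101 CPM in the HRAS guide libraries. A profile chosen for its likeness to MYC is bound to be lower there, so this is no separate observation. All of these profiles share the same libraries with their depth and GC trends. Within the network MXD1 was nearest to MYC (0.09, with 88 other genes nearer) and MXD3 farthest (0.29, with 10982 genes nearer).

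MYC also belongs to the genes that growth factors switch on quickly, and 14 others of that kind were compared with it. This list, like those below, was drawn up with earlier results of these data known. Its counts beside all genes are therefore descriptive and no separate support. The log2 fold change was negative for 14 of 14 and its median was -0.44, beside -0.0014 over all genes tested. The MYC estimate of -0.29 was smaller in size than that of 10 of the 14 and larger than that of the other 4, and for 6 of the 14 the 95% interval lay wholly below it. ATF3 (-0.66 ± 0.09) and NR4A1 (-0.74 ± 0.11), stress and growth factor response regulators, had the smallest p of the list, and 10.3% of NR4A1 exon bases overlap a gene on the opposite strand. By edgeR 0 of 14 passed, with 12 at an unadjusted p under 0.05 (3.34% of all genes). DESeq2 called 7 of 14 lower (0.134% of the 19450 genes with an adjusted p) and limma-voom 0, and with the GC and length correction 9 were called lower, where that fit called 0.19% of all genes lower. MYC was not among the calls of these fits. A test of the difference between MYC and these genes was not made.

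Genes that MYC is known to activate, mostly for ribosome production, nucleotide and polyamine synthesis and metabolism, did not pass. Of 30 listed genes 29 were tested, 17 with positive and 12 with negative log2 fold changes and a median of 0.01. By edgeR, DESeq2 and limma-voom 0 passed, with 0 at an unadjusted p under 0.05, and in 29 of 29 the groups overlapped, against 8.81% of all genes without overlap. The log2 fold change of 28 of the 29 was under 0.1 in size. For 24 the 95% interval lay above the MYC estimate of -0.29, which itself has an interval of -0.46 to -0.11, and a test of the difference from MYC was not made. The smallest p belonged to NOP2, a nucleolar RNA methyltransferase (4.09 ± 0.62 against 3.16 ± 0.40 CPM, SD, n = 3), whose exons share 54.4% of their bases with an overlapping gene on the same strand that had 0 counts. Next was DKC1, the pseudouridine synthase dyskerin (164 ± 8.26 against 175 ± 7.09 CPM). CCND2, the G1 cyclin D2, had 0 counts in all libraries and was the gene not tested. With the GC and length correction 0 of the 29 passed. NOP2 then had an unadjusted edgeR p of 0.0480, where 5.8% of all genes had such a p under 0.05. SHMT2 and HK2 were higher with the HRAS guide without overlap, and the rest of the tested genes overlapped. On that scale 12.3% of all genes had non-overlapping groups.

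Genes that MYC is known to repress were negative in 5 of 5, with a median of -0.07. By edgeR, DESeq2 and limma-voom 0 passed, with 2, 1 and 2 genes at an unadjusted p under 0.05 (3.34% of all genes in edgeR). With the GC and length correction 4 were negative and 1, CEBPA, a differentiation factor of the C/EBP family, was positive at 0.011. GADD45A, a growth arrest and DNA damage gene, lay at 89.0 ± 2.40 against 68.3 ± 0.24 CPM (-0.38 ± 0.08, edgeR adjusted p = 0.530), and the smallest DESeq2 adjusted p in the list was 0.0725. CDKN1A, the cyclin-dependent kinase inhibitor p21, lay at 233 ± 19.0 against 204 ± 5.85 CPM (-0.20 ± 0.08, edgeR adjusted p = 1.00). Both had non-overlapping groups, 2 of 5 beside 8.81% of all genes. Both are also known as targets of other pathways, p53 among them.

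**Figure D4:**
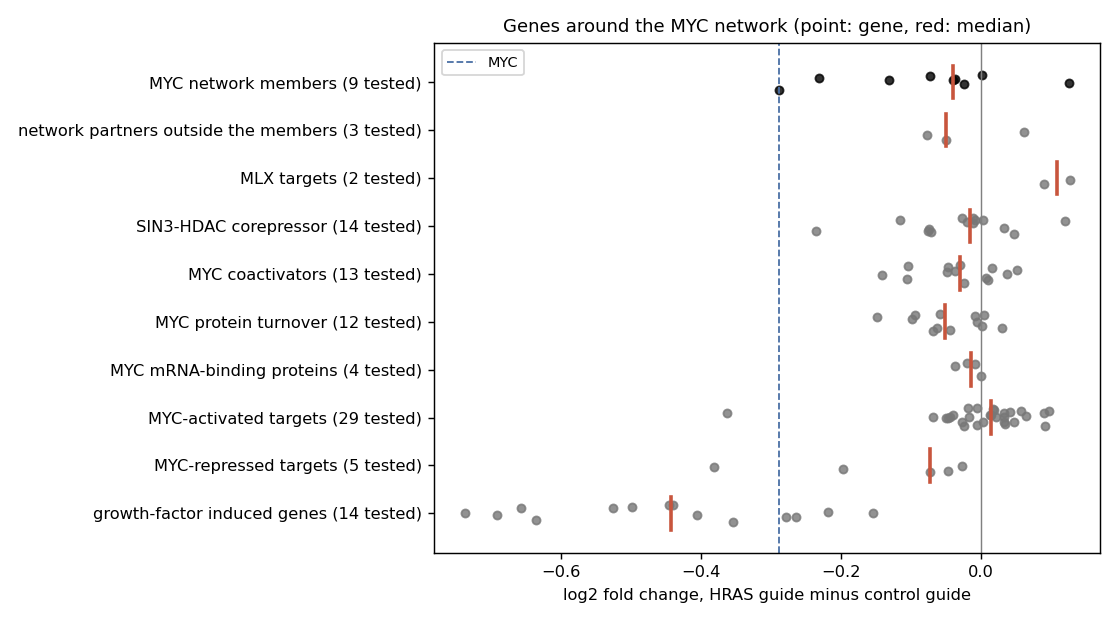
Log2 fold change, HRAS guide minus control guide (x axis), of every tested gene in the network and in the lists around it, with a point per gene, the list median in red and MYC as a dashed line at -0.29. MYC-activated targets gather around 0 (median 0.01) apart from NOP2, while growth-factor induced genes all lie below 0 (median -0.44).

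Partners and regulators of the network did not pass either. MGA, which joins MAX in a repressor complex (-0.05 ± 0.17), and the MLX partners MLXIP (-0.08 ± 0.10) and MLXIPL (0.06 ± 0.17) overlapped between the groups, as did the MLX-driven genes TXNIP (0.09 ± 0.09) and ARRDC4 (0.13 ± 0.13) and the MYC-bound cofactor ZBTB17 (-0.06 ± 0.12). Of 14 SIN3-HDAC corepressor genes 4 were positive and 10 negative (median -0.02), with SAP30 (-0.24 ± 0.12) and SAP18 (0.12 ± 0.09) of smallest p, and these 2 of 14 had non-overlapping groups, beside 8.81% of all genes. Of 13 MYC coactivator genes 5 were positive and 8 negative (median -0.03), with the acetyltransferases CREBBP (-0.14 ± 0.08, the 1 of 13 without overlap) and EP300 (-0.10 ± 0.11) of smallest p. In these lists 0 passed by edgeR, DESeq2 or limma-voom, with 0 at an unadjusted p under 0.05. With the GC and length correction 0 passed. CREBBP (0.00474) and SAP30 (0.0477) then had an unadjusted edgeR p under 0.05, as did 5.8% of all genes. CREBBP, EP300 and the coactivator gene KAT5 were then lower without overlap, beside 12.3% of all genes. The coactivator gene WDR5 was higher without overlap, while SAP30 and SAP18 overlapped. The MLX-driven genes TXNIP and ARRDC4, which overlapped before the correction, were then also higher without overlap. TXNIP lay at 158.6 to 163.8 CPM in the controls and at 164.7 to 176.5 CPM in the HRAS guide libraries. ARRDC4 lay at 11.13 to 11.99 CPM and at 12.49 to 12.71 CPM. Their unadjusted edgeR p with the correction was 0.142 and 0.136. Of KAT5 exon bases 38.6% overlap RNASEH2C on the opposite strand.

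Of 12 genes that act on MYC protein turnover 3 were positive and 9 negative (median -0.05), with the mitotic kinases PLK1 (-0.15 ± 0.09) and AURKA (-0.09 ± 0.09) of smallest p. The 1 of 12 with non-overlapping groups, beside 8.81% of all genes, was PIM1, a kinase that stabilises MYC. PIM1 lay at 107.1 to 111.7 CPM in the controls and 102.1 to 106.6 CPM in the HRAS guide libraries (-0.07 ± 0.08). FBXW7, the ubiquitin ligase subunit that marks MYC for degradation, was among the 3 with positive values. Of 5 proteins that bind MYC mRNA 4 were tested, and 4 were negative (median -0.01), ELAVL1 at -0.04 ± 0.08 and IGF2BP3 at -0.02 ± 0.14. Of IGF2BP3 exon bases 17.9% overlap MALSU1 on the opposite strand. In both lists 0 passed by the same 3 tools, with 0 at an unadjusted p under 0.05. With the GC and length correction 0 passed, and PLK1 alone had an unadjusted edgeR p under 0.05 (0.0185). PLK1 groups then did not overlap (94.9 to 100.3 CPM in the controls against 88.0 to 91.1 CPM), while those of PIM1 did. On that scale 12.3% of all genes had non-overlapping groups. IGF2BP1, one of the m6A readers of MYC mRNA, averaged 0.18 CPM in the controls and 0.12 CPM in the HRAS guide libraries and was not tested, while IGF2BP2 stood at 74.5 CPM in both groups.

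Because the dimers of this network bind the E-box letters CACGTG, which read the same on both strands, promoters of the members were searched for them. RefSeq start sites (GRCh38.p14) were used for 9 of the 10 members, all but MYC, with 12 start sites in all, each taken as 250 bases before to 50 after the start. CACGTG occurs in 3 of these 12 windows (25%), against 7.26% of 35116 such windows genome-wide, and it is shown here in capitals with 12 bases on either side to place the letters in MXD4 (chr4:2262330-2262359, minus strand, 238 bases before the start), MNT (chr17:2401236-2401265, minus strand, 193 before) and MLX (chr17:42567038-42567067, plus strand, 50 before).
MXD4: gggccgggccacCACGTGctgttgctaagc
MNT: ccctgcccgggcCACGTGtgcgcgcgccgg
MLX: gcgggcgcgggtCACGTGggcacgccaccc
The 3 genes with these letters had log2 fold changes of 0.0016, -0.13 and -0.07, and their groups overlapped. The related letters CACGCG, on either strand, occur in 2 of the 12 windows (16.7%, against 11.4% of all windows), and the GC box GGGCGG in 11 of 12 (91.7%, against 45.0%). The member windows are 55% to 76% GC, and MAX and MXI1 are counted repeatedly among them. All windows were not matched to these for GC content, and the difference in shares was not tested. A match is a description of the sequence, and no binding was measured here.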

How the data were processed

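RNA-seq counts of 6 libraries (3 per guide) were analysed. The authors deposited raw whole-number counts per gene, without normalization. HISAT2, StringTie, DESeq2 and the build hg38 appear, without roles, in the submitters' processing notes. Which tool counted, with which annotation release and strand setting, was not given in the sources used here. Columns were matched to samples by guide and replicate number. Of 60664 rows, 1 without values was left out. Symbols came from a gene name table (60462 identifiers matched), and coordinates, exon and transcript lengths and GC content from GENCODE release 29 on GRCh38, the assembly of hg38.

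Genes were filtered with filterByExpr (19836 kept), scaled by TMM and compared with edgeR 4.0.16 (R 4.3.3), quasi-likelihood F-test, two-sided, group alone, Benjamini-Hochberg over all tested genes, threshold 0.05. SE was recovered from the F statistic, and intervals are at 95%. The scripts were tested on simulated data. There the main edgeR test called 1 of 50 genes changed 1.25-fold and 28 of 50 changed 1.5-fold. It called 43 of 50 changed 2-fold and 50 of 50 changed 4-fold. Alternatives were DESeq2 1.42.0, limma-voom (limma 3.58.1), other scalings and filters, the replicate block, a GC and length correction (per-library robust splines, 5 and 4 degrees of freedom, prior count 2, entered as offsets), a covariate for sets of libraries sharing the sign of the GC trend, and each library left out.

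Members, lists and alternatives were chosen with earlier results of these data known. All members are given. From each other list up to 4 genes past the threshold are named or, with none, the 2 of smallest p, and lists of 3 or fewer are given whole. FBXW7, IGF2BP1, IGF2BP2, CCND2, CEBPA, PIM1, KAT5, WDR5, SHMT2, HK2 and the marker genes were named after their values were seen.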

Additional observations from a re-analysis of the deposited data

How the results depend on the processing

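Over 22 alternatives the number of members called was 0, as in the main analysis, except for 1 (MYC, lower) with the GC and length correction and without control guide replicate 2. Leaving out each library in turn, with or without the correction, therefore gave 0 to 1 members. MYC, MXD1, MNT and MLX were negative and MXD3 positive under all 22. MYC ran from -0.40 to -0.19, MXD1 from -0.33 to -0.15, MNT from -0.23 to -0.03, MLX from -0.14 to -0.0021 and MXD3 from 0.02 to 0.23. Signs that turned belonged to values near 0. MXD4 (0.0016) became -0.0038 in DESeq2, -0.0037 with DESeq2's size factors, -0.0045 with no filter, -0.0024 with at least 1 CPM in 3 libraries and -0.069 with the library set covariate, where MXI1 became 0.045 and HRAS -0.091. With each library left out, MXD4 ran from -0.11 to 0.13, MXI1 from -0.14 to 0.018, MYCL from -0.097 to 0.057, MAX from -0.053 to 0.020 and HRAS from -0.13 to 0.22. With the correction as well, MYCL reached 0.019 without control guide replicate 1 and 0.049 without HRAS guide replicate 3, and MAX 0.019 without control guide replicate 3.

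The number of genes called over the whole table, 2, was 28 in DESeq2, 57 with no filter, 39 with the GC and length correction, 81 with the library set covariate, and 1 in limma-voom, with DESeq2's size factors and with at least 1 CPM in 3 libraries. With each library left out it ran from 1 to 24, the highest without control guide replicate 2. With the correction it was 36, 131 and 8 without control guide replicates 1, 2 and 3 and 8, 17 and 7 without HRAS guide replicates 1, 2 and 3. The cause was not tested. With the replicate number as a block it was 1, and 6 with the block and the correction. The numbers showed no pairing on uncorrected levels: deviations of same-numbered libraries correlated at -0.66 to -0.14, and 0 of 6 libraries correlated best with its own number. These deviations carry the GC trends of the libraries, and a pairing hidden by those trends was not tested. The block left MYC at -0.29 ± 0.13 (adjusted p = 1.00) and called 0 members. With 3 libraries per group, standard errors of the tested members ran from 0.08 to 0.13, and MYC, at -0.29 with an error of 0.08, did not pass, so even differences well above these errors could go uncalled.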
